A study of Mus musculus with 4 samples.

Results

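The genes described here make, use and protect with glutathione, or belong to the wider detoxification programme of the transcription factor NRF2. They were chosen by symbol: the glutathione transferases (Gst and Mgst), the glutathione peroxidases (Gpx), the peroxiredoxins (Prdx), and a fixed set of NRF2-related and antioxidant genes. The rule found 48 genes on 50 probe sets, out of 22180 named genes on an array of 41345 probe sets. A further 6 genes that the rule names (Akr1c13, Gsta1, Gsta2, Gstm5, Gstz1 and Prdx1) were listed only on probe sets shared with other genes and were not analysed here.

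Total RNA came from 4T1Br, a subline of the mouse breast carcinoma 4T1 that homes to the brain; titles of the samples shorten its name to 4T1. All cells had received a lentiviral hairpin and survived puromycin selection. The hairpin was a control (shControl, 2 arrays) or was directed against YTHDF3 (shYTHDF3, 2 arrays), a cytoplasmic protein that reads N6-methyladenosine in messenger RNA. The arrays were made to find transcripts whose level differs between the hairpins. The labels do not say how many hairpin sequences were used, nor whether each array had its own culture, so the p-values rest on a spread between arrays that may be technical only.

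Glutathione is a small thiol that the cell builds from glutamate, cysteine and glycine and uses to neutralise peroxides and reactive chemicals. NRF2, encoded by Nfe2l2, is held in check by KEAP1, which sends it for degradation. When electrophiles or oxidants modify KEAP1, NRF2 accumulates and switches on genes of glutathione synthesis, conjugation and quinone reduction through antioxidant response elements. Carcinoma cells often rely on this programme to withstand oxidative stress and drugs.

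Array signals are log2 values after RMA, the authors' normalisation. A gene was tested when its mean over the 4 arrays exceeded log2 4.28, the background level set from olfactory receptor probe sets; 40 of the 48 genes did. Ythdf3 itself gave 8.98 and 8.81 with the control hairpin against 8.21 and 8.16 with its own, or 61.1% of the control level (adjusted p = 0.0355 by limma). The median over all probe sets was 4.42 and 4.47 in shControl against 4.43 and 4.42 in shYTHDF3. Of 8 epithelial markers named on the array, 5 were above background, among them Krt8 and Krt18, whereas Epcam was not. Of 7 leukocyte markers only Cd68 was above background, and Ptprc was not; of 9 fibroblast and vessel markers 7 were. Alb, the defining hepatocyte gene, was below background. Among the fibroblast and vessel markers Dcn fell by 2.65 and Pdgfra by 0.61 on the log2 scale (limma adjusted p = 0.00474 and 0.0471), whereas the other 5 above background differed by -0.05 to 0.21 and did not pass. The sum of that list's log2 levels was 50.8 and 52.3 in shControl against 48.6 and 48.2 in shYTHDF3; without Dcn and Pdgfra it was 34.0 and 35.5 against 35.2 and 34.5, which overlap. The leukocyte sum was 29.2 and 30.0 in shControl against 29.1 and 28.4 in shYTHDF3, and without Cd68 it was 21.9 and 22.4 against 22.5 and 21.6, which overlap. Cd68 read 7.30 and 7.57 in shControl against 6.62 and 6.82 in shYTHDF3 (change -0.72; limma adjusted p = 0.0547). The epithelial sum lay the other way, at 50.6 and 50.9 in shControl against 51.8 and 52.1 in shYTHDF3. No epithelial marker passed the test, and they moved both ways. Krt18 changed by 0.57 and Krt19 by -0.53 (limma adjusted p = 0.0527 and 0.0816). Cldn7, whose mean was below background, changed by 0.51. This sum was not taken again without any of them. The hepatocyte sum was 15.5 and 15.9 in shControl against 15.1 and 14.6 in shYTHDF3. Of its 4 markers only Apoa1 was above background, with a change of -0.04 (limma adjusted p = 0.927). Serpina1a, below background, differed most, by -0.45. The part of these markers in the changes below was not tested. In bulk RNA, fewer cells of a type and less RNA per cell cannot be told apart.

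The genes moved both ways. Of the 40 genes tested, 3 rose in shYTHDF3 (Gsta4, Gstm1 and Gstm7, all glutathione transferases), 2 fell (the mitochondrial peroxiredoxin Prdx3 and the haem oxygenase Hmox1) and 35 did not pass limma's test at an adjusted p of 0.05. That is 12.5% called, against 2.73% of the 13056 genes tested on the array (1.28% higher and 1.45% lower). At an unadjusted limma p under 0.05 there were 22 members (55%), 13 higher and 9 lower, against 22.6% of all genes. No member changed 2-fold. Nfe2l2 and, of the classic NRF2 targets, Gclc and Srxn1 had intervals around 0. The intervals of Gclm (0.24 to 0.68) and Nqo1 (0.01 to 0.55) lay above 0, though neither gene passed. That of Hmox1 (-1.01 to -0.41) lay below 0. The median change of the members was 0.11, against 0.0057 over all genes, and their median absolute change was 0.27 against 0.15. Changes of 0.4 or more in either direction were seen in 12 of the 40 members (30%) and in 10.7% of all genes tested.

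**Figure D1:**
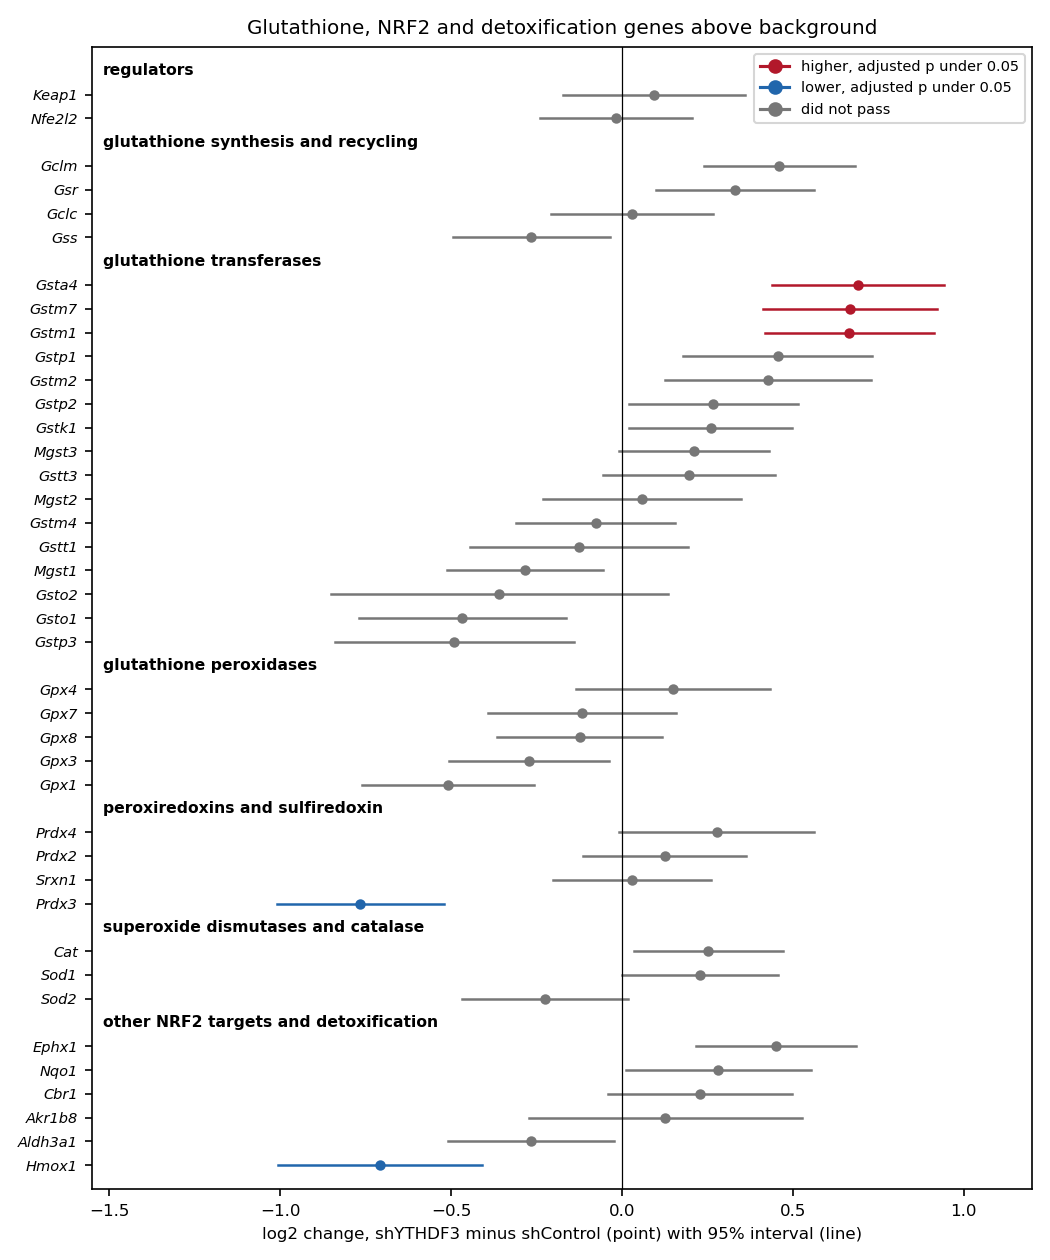
Log2 change of each of the 40 members above background, shYTHDF3 minus shControl (horizontal axis), with limma's 95% interval as a line, grouped by role; red and blue mark genes past an adjusted p of 0.05. The transferases spread from -0.49 to 0.69, the regulators lie near 0, and Prdx3 and Hmox1 lie farthest to the left.

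Nfe2l2 read 10.53 and 10.47 in shControl against 10.47 and 10.49 in shYTHDF3. The values of the groups overlapped, and the change was -0.02 (95% interval -0.24 to 0.20; limma adjusted p = 0.936). Its sign turned to 0.041 after a second quantile normalisation, 0.0025 with arrays set to a common median and 0.011 without shControl 1, so no direction is given. Keap1, the adaptor that sends NRF2 to a ubiquitin ligase, was measured by 2 probe sets that disagreed. The brighter one (17524659) read 7.30 and 7.45 in shControl against 7.54 and 7.40 in shYTHDF3, with overlapping groups and a change of 0.09 (95% interval -0.17 to 0.36; limma adjusted p = 0.654). The dimmer one (17515128) read 6.40 and 6.50 in shControl against 5.84 and 5.89 in shYTHDF3, so both shYTHDF3 arrays were lower, by 0.58 on average (SE 0.10). Tested among all 21867 probe sets above background, that probe set had an unadjusted limma p of 0.00344 and did not pass (adjusted p = 0.192). With the mean of both probe sets the Keap1 change was -0.25 (limma adjusted p = 0.215). The level of Keap1 is therefore not settled by these arrays.

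Glutathione synthesis and recycling rest on 4 genes, none of which passed. Glutamate-cysteine ligase, the rate-limiting enzyme, has a catalytic subunit (Gclc) and a modifier subunit (Gclm) that raises its efficiency. Gclm read 8.90 and 8.87 in shControl against 9.32 and 9.37 in shYTHDF3. Both shYTHDF3 values were higher, with a change of 0.46 (SE 0.09; limma adjusted p = 0.0605, or 0.00436 with an intensity trend in the variance model). Gclc read 8.01 and 8.08 against 8.13 and 8.02, overlapping groups with a change of 0.03 (95% interval -0.21 to 0.27; limma adjusted p = 0.893). Gsr, the reductase that regenerates glutathione from its disulfide with NADPH, was at 10.11 and 10.07 in shControl against 10.37 and 10.47 in shYTHDF3, a difference of 0.33 (SE 0.09; limma adjusted p = 0.121). Gss, the synthase that adds glycine in the final step, went the other way, with 6.44 and 6.40 in shControl against 6.11 and 6.20 in shYTHDF3, a difference of -0.27 (SE 0.09; limma adjusted p = 0.176). The groups of Gclm, Gsr and Gss did not overlap, but over all genes tested 54% had groups that did not overlap, and 29 of the 40 members (72.5%) did not.

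Glutathione transferases join glutathione to electrophilic compounds so that they can be exported, and are grouped into classes by sequence. Of 21 transferase genes, 16 were tested: 3 rose, none fell and 13 did not pass, with a median change of 0.20. That is 18.75% called, against 2.73% of all genes tested, whose median change was 0.0057. Gsta4, an alpha-class enzyme with high activity toward lipid peroxidation aldehydes, read 7.89 and 7.75 in shControl against 8.46 and 8.56 in shYTHDF3. It rose 1.61-fold, from 7.82 ± 0.10 to 8.51 ± 0.08 (SD, n = 2 each). On the log2 scale this was 0.69 (SE 0.10; limma adjusted p = 0.0377).

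The mu class gave the other rises. Gstm1 read 7.17 and 7.21 in shControl against 7.94 and 7.78 in shYTHDF3, a rise from 7.19 ± 0.03 to 7.86 ± 0.11 (SD, n = 2 each) or 0.67 on the log2 scale (SE 0.10; limma adjusted p = 0.0383). Gstm7 read 4.54 and 4.38 in shControl, only slightly above the background of 4.28, and 5.09 and 5.16 in shYTHDF3, a rise of 0.67 (SE 0.10; limma adjusted p = 0.0396). For both genes every shYTHDF3 array was above every shControl array. Gstm2 had 7.90 and 8.19 in shControl and 8.47 on both shYTHDF3 arrays, a difference of 0.43 that did not pass (SE 0.12; limma adjusted p = 0.124). Gstm4 differed by -0.08 (95% interval -0.31 to 0.16; limma adjusted p = 0.678), and Gstm3 and Gstm6 were below background. RefSeq's GRCm38.p6 annotation places these genes on chromosome 3 in the order Gstm7, Gstm6, Gstm3, Gstm2, Gstm1, Gstm4, so Gstm7 and Gstm1 were separated by genes that did not pass or were below background. They are close copies of each other, and how far each probe set reads a neighbour is uncertain.

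The pi class is encoded by near-identical copies, so the split between Gstp1 and Gstp2 is uncertain. Gstp1 read 10.10 and 10.23 in shControl against 10.71 and 10.52 in shYTHDF3. Both shYTHDF3 values were higher, the difference being 0.46 (SE 0.11; limma adjusted p = 0.0937, or 0.00907 with an intensity trend). Gstp2 differed by 0.27 (SE 0.10; limma adjusted p = 0.196). Gstp3 read 4.96 and 4.85 in shControl against 4.59 and 4.23 in shYTHDF3, the last value under the background, a difference of -0.49 (SE 0.14; limma adjusted p = 0.125).

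The omega class, whose members reduce rather than conjugate many substrates, had no gene past the test. Gsto1 read 9.31 and 9.10 in shControl against 8.83 and 8.64 in shYTHDF3, lower on both shYTHDF3 arrays by 0.47 on average without passing (SE 0.12; limma adjusted p = 0.106, or 0.0174 with an intensity trend). Gsto2 differed by -0.36 with overlapping groups (SE 0.20; limma adjusted p = 0.346), and its shYTHDF3 mean of 4.15 was under the background. The theta-class genes Gstt1 and Gstt3 differed by -0.13 and 0.20, and the mitochondrial and peroxisomal kappa enzyme gene Gstk1 by 0.26. Among the membrane-bound enzymes Mgst1 differed by -0.28, Mgst2 by 0.06 and Mgst3 by 0.21. None of these 6 passed, their limma adjusted p lying between 0.155 and 0.814.

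**Figure D2:**
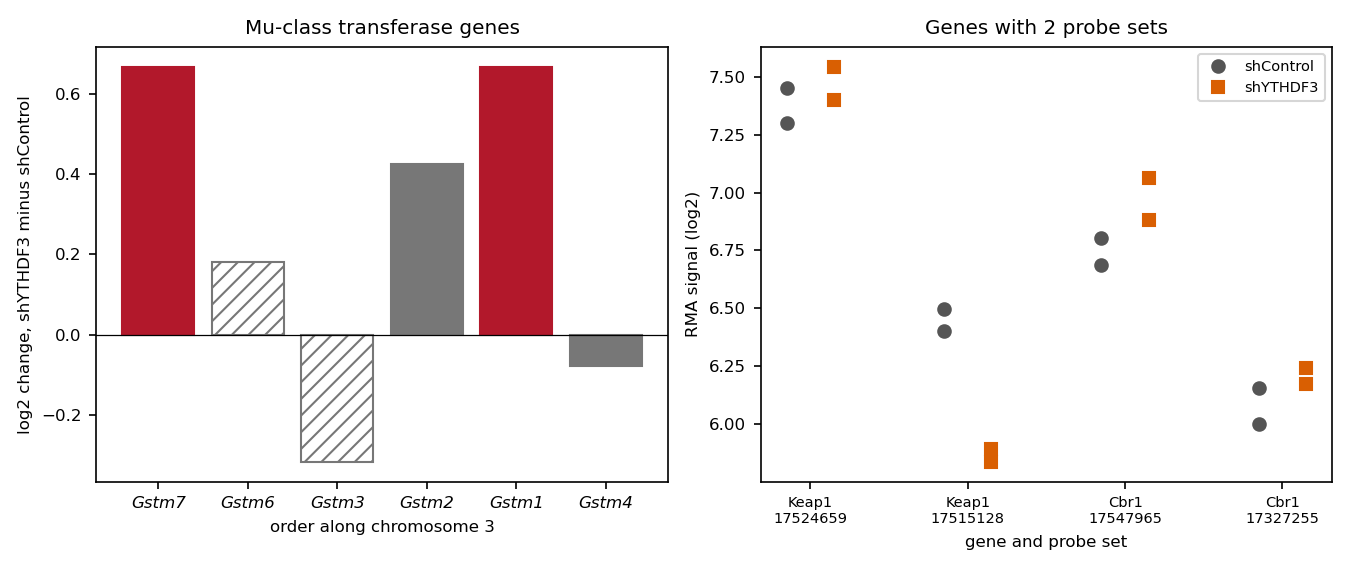
Left, log2 change (shYTHDF3 minus shControl) of the mu-class genes in their order along chromosome 3; red bars passed the test, grey bars did not and hatched bars were below background and not tested. Right, RMA signal (log2) on each array for both probe sets of Keap1 and Cbr1: the groups overlap on the first Keap1 probe set and stand 0.58 apart on the second.

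Glutathione peroxidases reduce hydrogen peroxide or lipid peroxides with glutathione. Of 8 genes 5 were tested and none passed. Gpx1, the cytosolic and mitochondrial selenoenzyme, read 10.68 and 10.54 in shControl against 10.15 and 10.05 in shYTHDF3. Both shYTHDF3 arrays were lower, leaving 70.3% of the control level, a difference of -0.51 (SE 0.10; limma adjusted p = 0.0633, or 0.00315 with an intensity trend). Gpx4, which repairs lipid hydroperoxides in membranes and guards against ferroptosis, read 7.35 and 7.57 in shControl against 7.55 and 7.67 in shYTHDF3, with overlapping groups and a difference of 0.15 (95% interval -0.14 to 0.43; limma adjusted p = 0.490). The secreted Gpx3 differed by -0.27 close to the background, with a limma adjusted p of 0.173. Gpx7 and Gpx8, both of the endoplasmic reticulum, differed by -0.12 each (limma adjusted p = 0.579 and 0.502).

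Peroxiredoxins are abundant peroxidases that are recharged by thioredoxin. Prdx3, the mitochondrial member, had the largest absolute change of all members. It read 9.39 and 9.28 in shControl against 8.51 and 8.63 in shYTHDF3, a fall from 9.34 ± 0.08 to 8.57 ± 0.08 (SD, n = 2 each). The change of -0.77 (SE 0.10; limma adjusted p = 0.0307) amounted to 58.8% of the control level. Prdx4, the peroxiredoxin of the endoplasmic reticulum, differed by 0.28 and the cytosolic Prdx2 by 0.12, and neither passed (limma adjusted p = 0.230 and 0.492). Srxn1 encodes sulfiredoxin, which restores over-oxidised peroxiredoxins and is a standard NRF2 target. It read 7.92 and 8.01 in shControl against 7.97 and 8.02 in shYTHDF3, with overlapping groups and a difference of 0.03 (95% interval -0.20 to 0.26; limma adjusted p = 0.893).

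Superoxide dismutases turn superoxide into hydrogen peroxide, and catalase removes the peroxide. Sod1, of the cytosol, differed by 0.23 (limma adjusted p = 0.219). Sod2, of the mitochondrial matrix, differed by -0.23 (limma adjusted p = 0.245). Cat read 10.42 on both shControl arrays and 10.68 on both shYTHDF3 arrays, a difference of 0.25 (SE 0.09; limma adjusted p = 0.176). The groups stood apart in each of these 3 genes, as they did in 54% of all genes tested, and none passed.

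**Figure D3:**
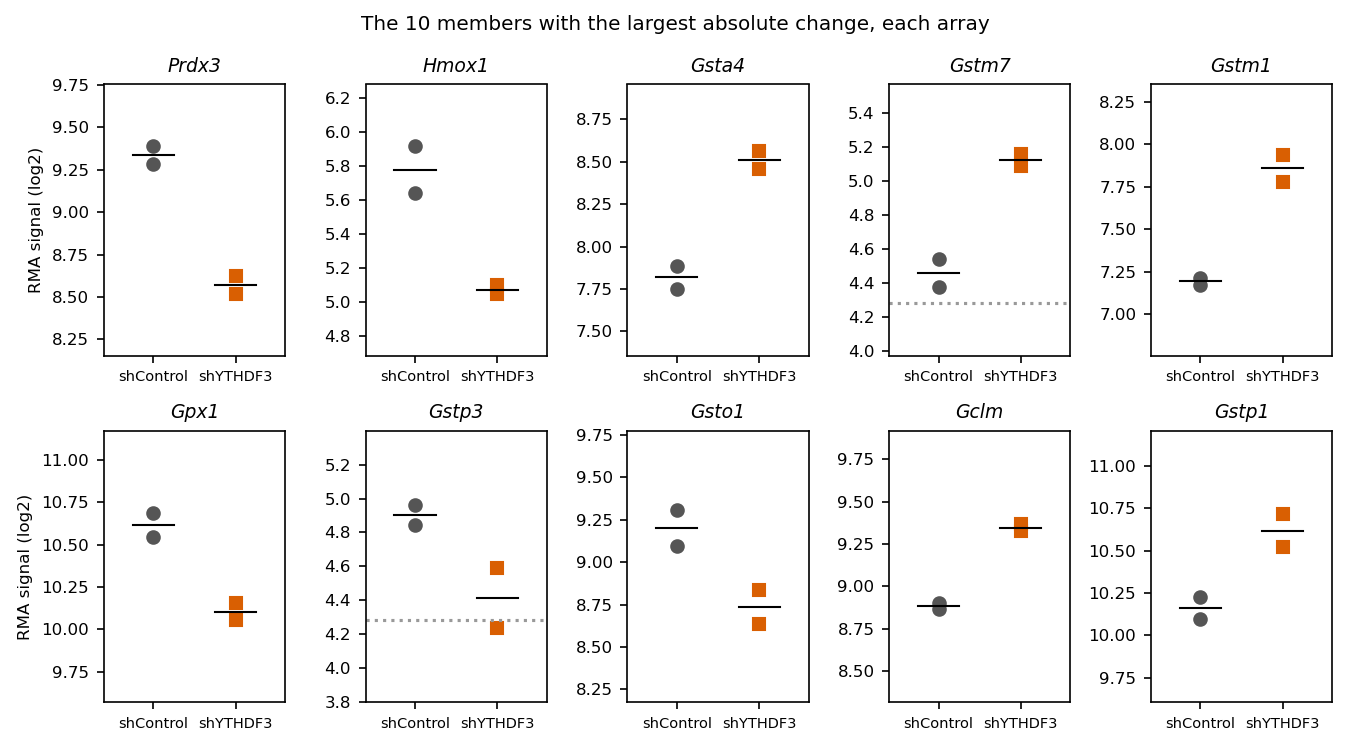
RMA signal (log2) on every array for the 10 members with the largest absolute change; circles are shControl arrays, squares shYTHDF3 arrays, bars the group means and the dotted line, where it falls in range, the background of 4.28. Each vertical axis spans the same log2 range; the groups do not overlap in any of the 10, which were picked for the size of their change (54% of all genes tested do not overlap), and 1 shYTHDF3 value of Gstp3 is under the background.

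Of the remaining detoxification genes, 1 of 6 fell (16.7%, against 1.45% of all genes tested) and 5 did not pass. Hmox1, which degrades haem and is induced by NRF2 when its repressor BACH1 is displaced, read 5.64 and 5.92 in shControl against 5.05 and 5.10 in shYTHDF3. Both shYTHDF3 arrays were lower, a fall from 5.78 ± 0.20 to 5.07 ± 0.04 (SD, n = 2 each) or -0.71 on the log2 scale (SE 0.12; limma adjusted p = 0.0478, and 0.0541 after a second quantile normalisation). Nqo1, the quinone reductase most often used as an NRF2 readout, read 7.02 and 7.21 in shControl against 7.45 and 7.34 in shYTHDF3. It was higher on both shYTHDF3 arrays by 0.28 on average and did not pass (95% interval 0.01 to 0.55; limma adjusted p = 0.207). Ephx1, the microsomal epoxide hydrolase, read 7.17 and 7.23 in shControl against 7.70 and 7.60 in shYTHDF3, a difference of 0.45 (SE 0.09; limma adjusted p = 0.0703). The carbonyl reductase gene Cbr1 differed by 0.23 on its brighter probe set and 0.13 on the other, the aldo-keto reductase gene Akr1b8 by 0.13 and the aldehyde dehydrogenase gene Aldh3a1 by -0.27, with limma adjusted p between 0.192 and 0.692.

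Nqo1, Hmox1, Gclc, Gclm and Srxn1 are often read together as a sign of NRF2 activity. Here Hmox1 fell, and the other 4 had changes between 0.03 and 0.46 that did not pass. With an intensity trend in limma's variance model 14 of the 40 members passed (10 higher, 4 lower), against 10.9% of all genes, and the set then included Gclm, Gsr, Gstm2, Gstp1, Ephx1, Cat and Sod1 as higher and Gpx1 and Gsto1 as lower. None of the 5 calls held without the filter on dim probe sets (limma adjusted p between 0.0734 and 0.110), with all probe sets above background tested together (0.186 to 0.201), with the replicate number as a block (0.0758 to 0.0901) or with any 1 array left out (0.138 to 0.208).

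**Figure D4:**
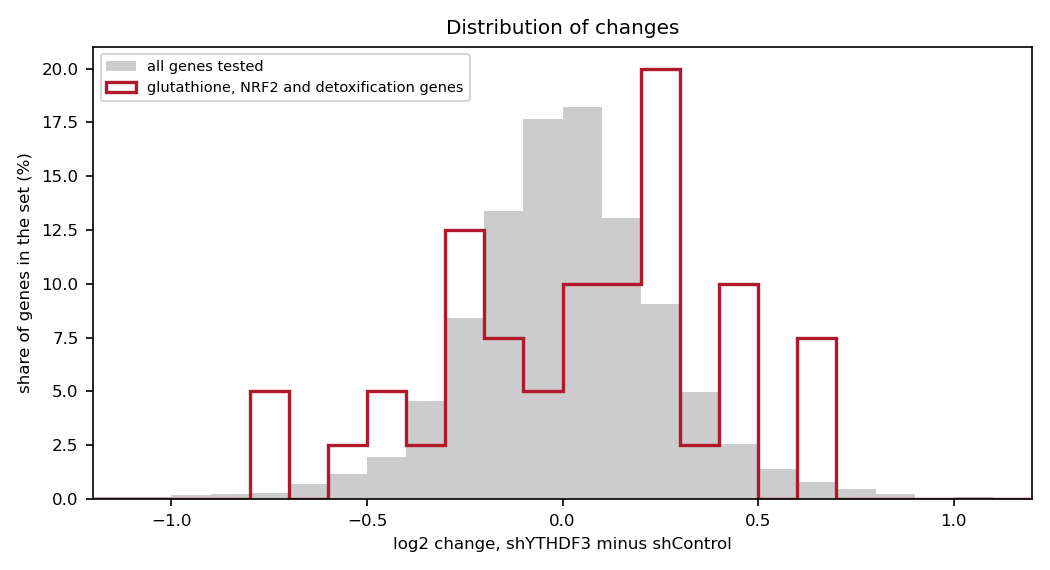
Share of genes (vertical axis, percent of each set) by log2 change in bins of 0.1, for all 13056 genes tested (grey) and for the 40 members (red outline); 47 genes beyond 1.2 in either direction, none a member, are off the axis. The members lie on both sides of 0, with 24 above and 16 below 0, where 48.9% of all genes tested lie below.

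The 8 members under the background (Gpx2, Gpx5, Gpx6, Gsta3, Gstm3, Gstm6, Gstt2 and Gstt4) had means between 2.70 and 4.03 and were not tested.

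Promoter sequence was examined because NRF2 acts through a short element. Its core was searched only as TGACNNNGC, so elements spelled otherwise were not counted. RefSeq windows on GRCm38.p6, from 250 bases before to 50 bases after a transcription start, were matched by gene identifier for 42 of the 48 genes, in 53 windows. No window was given for Aldh3a1, Gclc, Gsr, Gsta4, Gstt2 and Hmox1. The core was found on either strand in 7 of the 53 windows (13.2%), against 12.4% of all 32851 windows of that length. Among genes tested the shares were 13.6% of the members' 44 windows and 14.3% of all 12855, or by gene 17.1% and 16.7%. The matches that bear on the changes above are shown with 10 bases on each side, in the direction of the gene, with the core in capitals; where the core is on the opposite strand it reads GCNNNGTCA. Gstm7 is a member that rose, Gclm was higher without passing, Nfe2l2 and Srxn1 had changes near 0, and Mgst1 was lower without passing. None of them stands for its group: Gstm1 had no match in either of its windows, nor had Prdx3, which fell, nor Gstm2, Gstp1, Ephx1 and Cat, which were higher without passing.
Gclm, chr3:122245413-122245441, plus strand: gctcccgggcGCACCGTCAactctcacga
Gstm7, chr3:107931725-107931753, minus strand: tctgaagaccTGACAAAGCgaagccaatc
Nfe2l2, chr2:75704885-75704913, minus strand: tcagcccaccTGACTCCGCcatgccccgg
Srxn1, chr2:152105542-152105570, plus strand: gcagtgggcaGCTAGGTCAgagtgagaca
Mgst1, chr6:138140461-138140489, plus strand: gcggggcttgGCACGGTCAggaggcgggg
The remaining matches were in Sod1 and Gsta3. The cores began 134 bases before the start in Gclm, 129 in Gstm7 and 240 in Nfe2l2, 56 before in Mgst1, and 29 bases into the transcript in Srxn1. The Gstm7 match lay in the second of its 2 windows. A match describes these letters only, and a window without one says nothing of elements farther away or of other spellings within it. The genes with a match differed by values from -0.28 in Mgst1 to 0.67 in Gstm7. The 250 bases before the Gclm start, chr3:122245307-122245556 on the plus strand, are given whole because Gclm is the glutathione synthesis gene with the largest difference.
Gclm upstream: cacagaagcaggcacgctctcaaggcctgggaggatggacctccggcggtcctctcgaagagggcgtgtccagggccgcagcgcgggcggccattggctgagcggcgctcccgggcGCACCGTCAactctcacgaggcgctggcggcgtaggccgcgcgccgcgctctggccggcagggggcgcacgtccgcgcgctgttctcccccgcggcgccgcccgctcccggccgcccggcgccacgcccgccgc

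Genes that work beside these were taken from a list of 98, of which 87 were named on the array and 72 were above background. Of the 72, none rose, 3 fell (Glrx, Sod3 and Cyp1b1) and 69 did not pass, with a median change of -0.02 (4.17% called, against 2.73% of all genes). These 3 calls ended under every alternative that ended all calls of the members.

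In the thioredoxin system 1 of 12 genes fell (8.33%, against 1.45% of all genes tested). Glrx, the cytosolic glutaredoxin that removes glutathione from proteins, read 9.92 and 9.88 in shControl against 9.30 and 9.19 in shYTHDF3, a fall of 0.65 (SE 0.09; limma adjusted p = 0.0360). The genes of thioredoxin and its cytosolic reductase, Txn1 and Txnrd1, differed by 0.02 and -0.03. Msrb1 and Msra, which repair oxidised methionine, were each 0.42 higher on average and did not pass (limma adjusted p = 0.0697 and 0.0761).

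Cystine uptake and glutathione turnover held the widest differences. Chac1, which degrades glutathione, read 7.74 and 8.01 in shControl against 6.12 and 6.89 in shYTHDF3. Both shYTHDF3 values were lower but stood well apart from each other, and the change of -1.37 did not pass (SE 0.26; limma adjusted p = 0.0550). Slc7a11, the cystine transporter that supplies cysteine for glutathione, read 8.83 and 8.79 in shControl against 7.60 and 8.12 in shYTHDF3, a difference of -0.95 (SE 0.18; limma adjusted p = 0.0544). Its partner chain Slc3a2 differed by -0.46 (limma adjusted p = 0.0789). With an intensity trend these 3 passed, at limma adjusted p of 0.00480, 0.00409 and 0.00663.

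The genes of the aryl hydrocarbon receptor (AHR), a sensor of aromatic compounds, and of the oxidising enzymes it controls had negative changes in all 5 tested, of which 1 passed; of all genes tested 48.9% had negative changes and 2.73% passed. Cyp1b1, a cytochrome P450 induced by this receptor, read 9.78 and 9.68 in shControl against 8.96 and 9.02 in shYTHDF3, a fall of 0.74 (SE 0.09; limma adjusted p = 0.0298). Ahr, its partner Arnt and its target Tiparp differed by -0.39, -0.60 and -0.43 without passing (limma adjusted p = 0.104, 0.0527 and 0.0740), and Cyp2s1 by -0.15 with overlapping groups. With an intensity trend Ahr, Arnt and Tiparp passed (limma adjusted p = 0.0211, 0.00361 and 0.0115), as did 10.9% of all genes. Cyp2s1 did not (0.643). The median of the 5 was -0.43. Cyp1a1 and Cyp1a2 were below background.

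The list of other redox and detoxification genes held 1 fall among 14 tested (7.14%, against 1.45% of all genes tested). Sod3, the extracellular superoxide dismutase, read 7.28 and 7.46 in shControl against 6.61 and 6.69 in shYTHDF3. The fall was 0.72 (SE 0.11, limma adjusted p = 0.0377). In the same list Sesn2, a stress-induced sestrin, differed by -0.67 and Aldh1a1, a retinaldehyde dehydrogenase, by 0.64 (limma adjusted p = 0.178 and 0.0972). In the other roles Nnt, Maff, Abcc1 and Papss1 passed with an intensity trend (limma adjusted p = 0.0253, 0.0256, 0.0276 and 0.0370). Without it these roles held no call. Their widest differences were 0.36 for Nnt and 0.19 for Idh2 among 6 genes of NADPH supply, 0.33 for Hmox2 and 0.29 for Blvrb among 5 of haem and iron handling, and -0.66 for Maff and 0.25 for Bach2 among 11 NRF2 partners and turnover genes. Among 4 exporters Abcc1 differed by -0.34 and Abcc4 by -0.27, and among 5 sulfo- and glucuronosyl transfer genes Papss1 differed by 0.28 and Sult2b1 by 0.08.

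**Figure D5:**
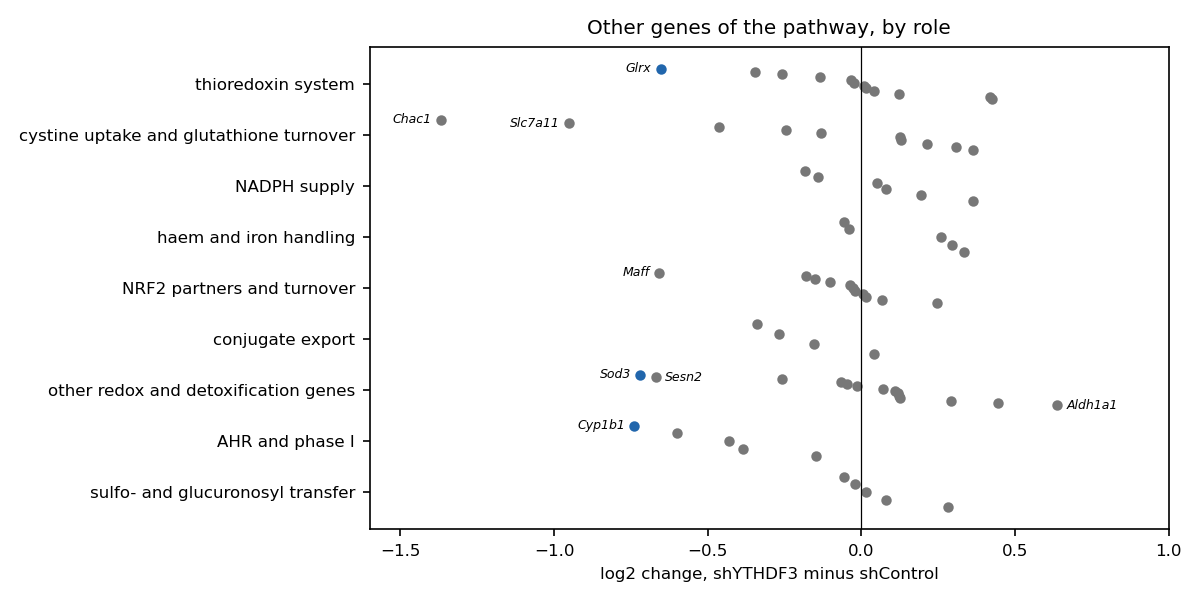
Log2 change (horizontal axis, shYTHDF3 minus shControl) of the 72 other pathway genes above background, by role; each point is a gene, blue marks the 3 that fell, and genes that fell or lie beyond 0.6 in either direction are labelled. Chac1 and Slc7a11 lie farthest to the left at -1.37 and -0.95 without passing, and all 5 AHR and phase I genes lie below 0, as do 48.9% of all genes tested.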

How the data were processed

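The deposited log2 values, 1 per probe set and array, come from RMA, run by the authors according to the submitters' processing notes. Neither version nor log base is given in the sources used here; log2 was taken from the range. RMA makes array distributions alike, so a shift of most genes would not be seen. Platform annotation gave 23521 probe sets 1 gene symbol, 1814 several and 16010 none; 23328 of the first took RefSeq's symbol by Entrez identifier. A gene with several probe sets took the one with the highest mean. Background was the 95th percentile of 1108 olfactory receptor probe sets. Genes above it were tested with limma 3.58.1 in R 4.3.3 (lmFit, eBayes, two-sided), with Benjamini-Hochberg adjustment over all 13056; SE is limma's moderated standard error.

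The members and lists were chosen with earlier results of these data known. In full were given Nfe2l2, Keap1, Nqo1, Hmox1, Gclc, Gclm, Srxn1 and Ythdf3, members past the threshold, and the 10 largest absolute changes; of the pathway list, genes past the threshold and the 2 widest per role. Txn1, Txnrd1, Msra, Slc3a2, Aldh1a1, Ahr, Tiparp, Cyp2s1, Cyp1a1 and Cyp1a2 were added after their values were seen. Alternatives were another filter or none, an intensity trend, other normalisations, probe set rules, a replicate block and leaving out each array. The limma step was tested on simulated data. Figures used matplotlib 3.10.9.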

Additional observations from a re-analysis of the deposited data

How the results depend on the processing

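The number of arrays, 2 in each group, limits the precision. The 5 called members kept their direction under all 13 alternatives run, and 29 of those 65 values passed. The kept direction is no sign of stability. It follows from groups that do not overlap wherever an alternative left the array values as they were. Genes called over all, members higher, members lower, pathway genes higher and pathway genes lower numbered 356, 3, 2, 0 and 3. With no filter they were 43, 0, 0, 0 and 0 (3252 genes at an unadjusted limma p under 0.05), and with all probe sets tested by limma 0 in each (3337 at an unadjusted p under 0.05). An intensity trend gave 1426, 10, 4, 4 and 12, and with robust estimation 1465, 10, 4, 5 and 12. A second quantile normalisation left 1 member lower. A stricter filter, at the median probe set mean, and a common median each gave 6 pathway genes lower. The replicate number as a block gave 51, 0, 0, 0 and 0. The labels do not say that the numbers pair the arrays, and the difference between replicates 1 and 2 in one group correlated at -0.066 over genes with that in the other. With any 1 array left out, 1 group held a lone array, which was assumed to vary like the other group. Such fits leave few residual degrees of freedom. The members' median change ran from 0.029 without shControl 1 to 0.14 without shControl 2.

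Named members whose sign turned were Nfe2l2 (0.041 after a second quantile normalisation, 0.0025 with a common median), Keap1 (-0.25 with the mean of its probe sets) and, with 1 array left out, Nfe2l2 (-0.047 to 0.011), Gclc (-0.023 to 0.082) and Srxn1 (-0.017 to 0.074). The cause of these shifts was not tested.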
